A study of Mus musculus with 28 samples.

Results

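Messenger RNA of the constitutive proteasome subunits was measured by RNA-seq of cultured mouse bone marrow macrophages, in 28 libraries that fall into 7 groups of 4 and into 2 experiments. The members are the protein-coding genes whose symbol is Psma, Psmb, Psmc, Psmd or Psme followed by a number alone. The interferon-inducible catalytic subunits Psmb8, Psmb9 and Psmb10 and 4 pseudogenes were left out, as were Psmc3ip and Psme2b, whose symbols begin in the same way. This gave 40 genes, 39 of them among the 15423 gene rows of experiment 1 and all 40 among the 56941 of experiment 2. In each experiment the same 39 passed the filter on low counts, among 13998 genes tested in experiment 1 and 15429 in experiment 2. Psmb11, the thymus subunit β5t, was the exception. It had no row in experiment 1 and failed the filter in experiment 2, with at most 0.00987 counts per 1e6 (CPM) in any library.

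Experiment 1 held cells of mice without Irgm1 and without the type I interferon receptor (Irgm_IFNAR-KO), cells of Irgm1-/- mice (Irgm1-KO) and wild-type C57BL/6 cells (WT). Experiment 2 held Irgm1KO and WT cells, each with 50 µM fenofibrate or as controls, the groups being Irgm1KO_fenofibrate, WT_fenofibrate, Irgm1KO_control and WT_control. Fenofibrate lowers blood lipids and acts on the nuclear receptor PPARα. Both mutant lines had been backcrossed to C57BL/6 and lack the gene in all cells of the animal. Donors of both sexes were 2 to 4 months old. Marrow cells grew for 6 days with medium conditioned by L929 cells, a source of macrophage growth factor, and were then kept 24 h without it. The sources used here do not give the length of the fenofibrate exposure, what the control cells received, or whether the 4 libraries of a group are separate animals. The p-values therefore weigh a difference against the spread between libraries, which may be technical. In each group of experiment 2 some libraries had Xist, a transcript of female cells, at 1.78 CPM or less and others had more. The 4 libraries of a group there were thus not all of 1 animal, but whether each was a separate animal is not known.

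The proteasome degrades proteins tagged with ubiquitin. Its core particle is a barrel of stacked rings, with outer rings of α subunits (Psma genes) that gate the entry and inner rings of β subunits (Psmb genes), of which β1, β2 and β5 cut peptide bonds. The regulatory particle caps the barrel: a ring of ATPases (Psmc genes) unfolds the substrate, and non-ATPase subunits (most Psmd genes) bind and remove the ubiquitin chain. Psme genes encode activators that open the barrel without ubiquitin. In macrophages interferon replaces the constitutive catalytic subunits by Psmb8, Psmb9 and Psmb10, which favours peptides for MHC class I. When proteasome activity falls short, the transcription factor Nfe2l1 (NRF1) is processed and raises transcription of many subunit genes through antioxidant response elements.

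The libraries differed in ways that bear on these genes. Depth was 48.6 to 70.46 M counts per library in experiment 1 and 82.4 to 120.8 M in experiment 2 (M, 1e6). In experiment 1 the first axis of variation within groups held 53.7% of the within-group variance over 13959 genes that are not members, and its loadings ran against transcript length (Spearman rho -0.68 over 11615 genes, a description). The library with the highest summed member level in each group was Irgm_IFNAR-KO 4, Irgm1-KO 3 and WT 2. These same libraries had the largest share of counts from ribosomal protein genes in their groups, at 3.7% in Irgm_IFNAR-KO 4, 2.76% in Irgm1-KO 3 and 4.02% in WT 2, and the lowest Xist. In experiment 2 Xist was at 1.78 CPM or less in replicate 3 of both Irgm1KO groups and in replicates 2 and 4 of both WT groups, and higher elsewhere. The axis of experiment 2 held 20.9%, with rho -0.29. All 10 macrophage markers were in both tables. Their summed level was 30800 to 42400 CPM in Irgm_IFNAR-KO, 11000 to 16700 in Irgm1-KO and 23000 to 43600 in WT, and 15900 to 19500 in Irgm1KO_fenofibrate, 14700 to 23800 in WT_fenofibrate, 11700 to 14100 in Irgm1KO_control and 23600 to 32800 in WT_control. Gene by gene, of the 10 markers 1 rose and 3 fell in Irgm1-KO against WT (median log2 fold change -0.15), where 19.8% and 20.7% of all genes did. In Irgm_IFNAR-KO against Irgm1-KO 4 markers rose and 3 fell (21.5% and 21.3% of all genes). In Irgm1KO_control against WT_control 1 marker rose and 6 fell (27.3% and 26.1% of all genes). With fenofibrate 1 rose and 6 fell in WT cells (18.1% and 16.9% of all genes). In Irgm1KO cells 2 rose and 4 fell with the drug (23.5% and 22.2% of all genes). Summed neutrophil markers reached at most 40.7 CPM in any library (in WT, with Elane at 0 in Irgm1-KO). Dendritic cell markers reached 5.72, T and NK cell markers 3.79, B cell markers 1.88, mast cell markers 1.37 and stromal markers 1.1 CPM. The table of experiment 1 held only a part of these lists, with 1 of 5 B cell markers and 1 of 5 T and NK cell markers. It held 2 of 5 stromal, 3 of 4 dendritic cell, 3 of 4 mast cell and 7 of 8 neutrophil markers. Erythroid markers had values in experiment 2 alone, at most 0.0217 CPM, so cells whose markers are missing were not checked in experiment 1. Irgm1 lay at 641 to 786 CPM in Irgm_IFNAR-KO, 628 to 839 in Irgm1-KO and 1189 to 1352 in WT libraries, and at 1017 to 1144 CPM in Irgm1KO_fenofibrate, 1470.0 to 1673 in WT_fenofibrate, 991 to 1040.0 in Irgm1KO_control and 1514 to 1669 in WT_control. Ifnar1 lay at 114, 109, 53.1 and 108 CPM in Irgm_IFNAR-KO libraries, 112 to 127 in Irgm1-KO and 128 to 141 in WT. Gene-level counts include exons outside a deletion, so these levels are a weak check of the labels.

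Relative to transcript length the activator genes Psme1 and Psme2 led the set in all 7 groups. In WT_control, Psme1 was at 328 CPM per kb (range over libraries 318 to 338) and Psme2 at 292 (284 to 304), and the ranges did not overlap. Psmd8 followed at 138 (128 to 147) and Psma7 at 134 (131 to 135), which overlapped. The lowest tested members were Psmd9 at 7.97 (7.7 to 8.54), Psmd5 at 7.16 (6.83 to 7.48) and Psma8, the testis form of α4, at 0.817 (0.588 to 1.18). In Irgm1KO_control the order of the first pair was reversed, with Psme2 at 483 (439 to 505) and Psme1 at 459 (434 to 484), but these ranges overlapped. Psmb5, the constitutive chymotrypsin-like subunit β5, was among the lowest core subunits in experiment 2, at 31.3 CPM per kb in Irgm1KO_control (28.8 to 33.4) and 19.1 in WT_control (18.2 to 20.2).

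RefSeq promoter windows (250 bases before to 50 after the start, GRCm38.p6) were matched to 33 of the 40 members by symbol and searched on both strands. The antioxidant response element core TGACNNNGC, the letters through which Nfe2l1 acts, was found in 6 of the 33 windows (18.2%), against 12.5% of 27025 promoters and 14.9% of 10249 promoters of genes tested in experiment 2. The 4 members whose core starts within 100 bases before the start site are printed because they show it there, with 100 bases before and 10 after the start and the core in capitals. In Psme4 it lies on the opposite strand, as GCAGCGTCA, and runs past the start.
Psmb5 (GRCm38.p6 chr14:54617986-54618095, minus strand): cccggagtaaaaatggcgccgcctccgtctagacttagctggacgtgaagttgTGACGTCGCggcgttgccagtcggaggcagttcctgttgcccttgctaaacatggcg
Psmb6 (GRCm38.p6 chr11:70525257-70525366, plus strand): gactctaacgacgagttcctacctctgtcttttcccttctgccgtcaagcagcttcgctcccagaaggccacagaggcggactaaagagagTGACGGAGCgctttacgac
Psmd9 (GRCm38.p6 chr5:123228090-123228199, plus strand): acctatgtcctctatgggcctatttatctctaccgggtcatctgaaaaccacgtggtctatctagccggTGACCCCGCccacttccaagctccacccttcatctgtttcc
Psme4 (GRCm38.p6 chr11:30771675-30771784, plus strand): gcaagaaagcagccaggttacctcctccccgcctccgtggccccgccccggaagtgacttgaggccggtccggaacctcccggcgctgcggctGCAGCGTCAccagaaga
The other members with the core were Psmc6 and Psmd12, with the core starting 227 and 247 bases before the start. The core of the interferon-stimulated response element, GAAANNGAA, was in 5 of 33 windows (15.2%, against 8.57% of all promoters), namely Psmb3, Psmb4, Psmd4, Psmd9 and Psme1. The STAT core TTCNNNGAA was in the Psmd2 window alone (3.03%, against 8.47%), and CCAAT in 13 (39.4%, against 37.9%). CCGGAA, the core bound by ETS factors, was added after the windows had been seen and was in 16 of 33 (48.5%), against 15.2% of all promoters and 28.9% of those of tested genes. Psmd11, chosen with its values known because it changed in 6 of the 8 comparisons below, carried it on the opposite strand as TTCCGG, shown in capitals.
Psmd11 (GRCm38.p6 chr11:80428515-80428624, plus strand): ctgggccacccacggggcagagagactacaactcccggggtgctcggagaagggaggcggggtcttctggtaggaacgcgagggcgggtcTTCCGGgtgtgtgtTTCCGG
These matches describe letters in a window and say nothing of binding.

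Comparing Irgm1KO_control with WT_control cells asked how loss of Irgm1 changes unstimulated macrophages. Nearly every member was higher in knockout cells. By edgeR's quasi-likelihood test, at a Benjamini-Hochberg adjusted p of 0.05 over all genes tested, 38 of 39 tested rose and 0 fell, with a median log2 fold change of 0.629, while 27.3% of all genes tested rose and 26.1% fell (all-gene median 0.0035). The summed level of the members was 6146 ± 234 CPM in Irgm1KO_control and 4068 ± 77.6 CPM in WT_control (SD, n = 4 each), or 0.612% of all counts in Irgm1KO_control and 0.391% in WT_control. The lowest knockout library, at 5802 CPM, lay above the highest wild-type library, at 4130 CPM. In bulk RNA a change in cell make-up and a change in RNA per cell cannot be told apart, and the summed level of 5 proliferation markers was lower, at 238 to 283 CPM in Irgm1KO_control and 470 to 649 CPM in WT_control. The part of that difference, and of the macrophage marker levels above, in the results for these genes was not tested. Effects are given below as a log2 fold change ± its standard error.

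In the α ring 7 of 8 genes rose. Psma6 (α1) was at 178, 179, 169 and 182 CPM in Irgm1KO_control libraries 1 to 4, against 109, 103, 105 and 105 CPM in WT_control (0.75 ± 0.0441, adjusted p = 1.37e-09). Psma4 (α3) had 220.1, 219, 205 and 210.3 CPM in Irgm1KO_control and 137, 129.7, 131 and 125 CPM in WT_control (0.71 ± 0.053, adjusted p = 1.75e-08). Psma3 (α7), whose tail binds other proteins, had 106, 100.3, 92.5 and 99.8 CPM in Irgm1KO_control and 69.6, 69.5, 66.6 and 67.3 CPM in WT_control (0.54 ± 0.0498, adjusted p = 1.62e-07). For each of these genes all 4 knockout libraries lay above all 4 wild-type libraries. The gene that was not called was Psma8, at 0.55, 2.56, 1.93 and 0.671 CPM in Irgm1KO_control and 2, 1.05, 1.49 and 0.995 CPM in WT_control.

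All 7 tested β genes rose. Among the catalytic subunits, Psmb7 (β2, trypsin-like) had 192, 181, 176 and 190.2 CPM in Irgm1KO_control and 104, 97.8, 105 and 96 CPM in WT_control (0.88 ± 0.0483, adjusted p = 6.63e-10), the largest fold among the members. The span of Psmb7 overlaps that of Nek6 on the opposite strand. It is not stated whether counting used the strand, so how reads of a shared stretch were counted is not known. The same holds, among others, for Psme1 and Emc9, Psma3 and 3110056K07Rik, Psmc3 and Slc39a13, Psmd13 and Sirt3, and Psmd1 and Htr2b. Psma2 and AW209491 overlap on the same strand. Whether exons of these pairs overlap was not tested. Psmb6 (β1, caspase-like) had 164, 154, 131 and 166 CPM in Irgm1KO_control and 86.6, 83.6, 85.9 and 86.7 CPM in WT_control (0.85 ± 0.0717, adjusted p = 6.92e-08). Psmb5 had 30.0, 28.9, 25.9 and 27.9 CPM in Irgm1KO_control and 16.6, 17.4, 16.4 and 18.2 CPM in WT_control (0.72 ± 0.106, adjusted p = 2.83e-05). No knockout library overlapped the wild-type range for these 3 genes. The structural subunits Psmb1 (β6) and Psmb4 (β7) had the smallest folds of the ring, with log2 fold changes of 0.44 and 0.47.

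All 6 ATPase genes rose, within a narrow span of log2 fold changes from 0.63 to 0.78. Psmc4 (Rpt3) had 123, 124, 115 and 123 CPM in Irgm1KO_control and 71.5, 68, 74.8 and 71.3 CPM in WT_control (0.77 ± 0.0571, adjusted p = 1.68e-08). Psmc6 (Rpt4) had 127, 129.5, 120.5 and 122 CPM in Irgm1KO_control and 80.5, 81.3, 81.2 and 80.2 CPM in WT_control (0.63 ± 0.047, adjusted p = 1.76e-08). Both groups were tight and well apart for both genes.

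All 11 non-ATPase genes of the regulatory particle rose. Psmd14 (Rpn11), the enzyme that cuts ubiquitin chains off the substrate, had 122, 118, 108 and 117 CPM in Irgm1KO_control and 67.4, 67.8, 68.3 and 67.9 CPM in WT_control (0.78 ± 0.0423, adjusted p = 6.07e-10). Psmd11 (Rpn6), a scaffold of the lid, had 127, 125, 116 and 123 CPM in Irgm1KO_control and 73.8, 69.6, 75.2 and 74.6 CPM in WT_control (0.74 ± 0.0469, adjusted p = 2.78e-09). Psmd4 (Rpn10), a ubiquitin receptor, had 125, 127, 119.5 and 131 CPM in Irgm1KO_control and 78.9, 74.7, 80.0 and 77.4 CPM in WT_control (0.69 ± 0.0604, adjusted p = 9.24e-08). In all 3 cases every knockout library exceeded every wild-type library. Psmd3 (Rpn3), Psmd8 (Rpn12), Psmd7 (Rpn8), Psmd2 (Rpn1, a scaffold of the base) and Psmd1 (Rpn2) had log2 fold changes of 0.69, 0.65, 0.57, 0.50 and 0.42, and Psmd6 (Rpn7) had the smallest, at 0.32.

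The base chaperones Psmd5, Psmd9 and Psmd10 (gankyrin), which help the ATPase ring assemble, all rose, with log2 fold changes of 0.48, 0.26 and 0.41. So did the 4 activators, unevenly. Psme2 (PA28β) had 486, 476, 422 and 473 CPM in Irgm1KO_control and 293, 273, 283 and 273 CPM in WT_control (0.73 ± 0.0667, adjusted p = 1.65e-07). Its partner Psme1 (PA28α), which interferon also induces, had 521, 499.5, 482 and 538 CPM in Irgm1KO_control and 372, 357, 376 and 354 CPM in WT_control (0.48 ± 0.0601, adjusted p = 4.28e-06). Psme3 (PA28γ), the nuclear activator, had 100.0, 100.0, 97.3 and 96.5 CPM in Irgm1KO_control and 85.6, 87.7, 86.5 and 87.4 CPM in WT_control (0.18 ± 0.0369, adjusted p = 0.000521). Psme4 (PA200) had 216, 200.1, 202 and 215 CPM in Irgm1KO_control and 169.5, 175, 170.1 and 172 CPM in WT_control (0.28 ± 0.0619, adjusted p = 0.00116). The groups were apart for all 4 genes, and the smallest fold among the members that rose was that of Psme3.

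**Figure D1:**
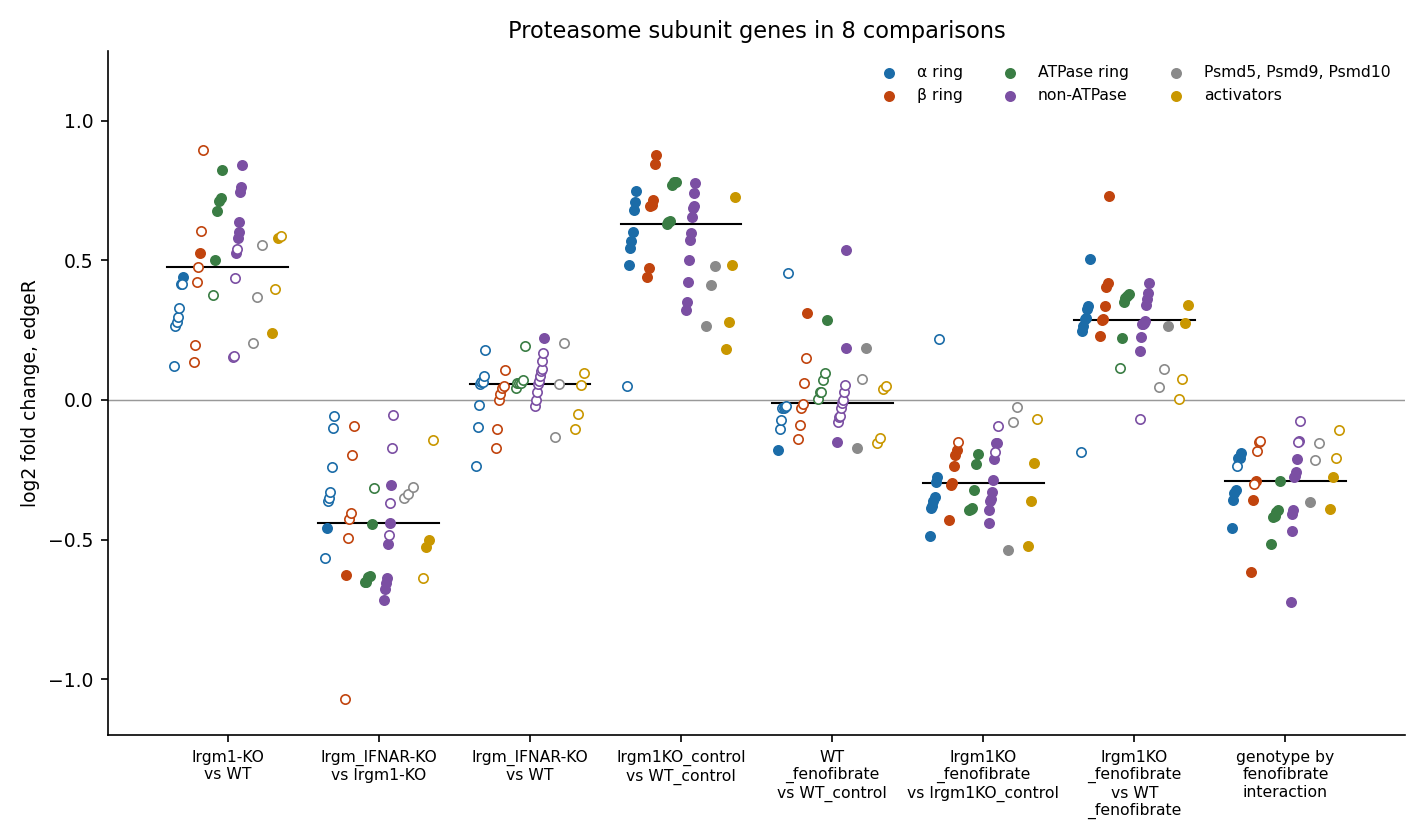
Log2 fold change (edgeR, vertical axis) of the 39 tested members in the 8 comparisons, 1 point per gene, coloured by role; filled points passed an adjusted p of 0.05 and black lines are medians. In Irgm1KO_control vs WT_control 38 of 39 points are filled and above 0, and in the interaction all 39 lie below 0.

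In experiment 1, Irgm1-KO against WT, the members stood in the same direction but fewer passed the test. Of 39 tested, 16 rose and 0 fell, against 19.8% of all genes that rose and 20.7% that fell, and all 39 log2 fold changes were above 0, with a median of 0.476 (all-gene median -0.019, 48.4% of genes above 0). The summed level was 6271, 6574, 9684 and 6871 CPM in Irgm1-KO libraries 1 to 4, against 3829, 7304, 5060 and 4844 CPM in WT. The groups overlapped, because WT library 2 lay above 3 of the Irgm1-KO libraries. The proliferation markers summed to 66 to 88.5 CPM in Irgm1-KO and 250 to 355 CPM in WT, and their part in the result was not tested. The members that were called had a median spread within groups of 0.171 (SD of log2 CPM) and those that were not of 0.402, with median log2 fold changes of 0.618 (called) and 0.376 (not called) and median transcript lengths of 1844.5 and 1332 bases. Spread, fold and length thus moved together, and their parts in the calls were not tested.

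The smallest p-values were those of non-ATPase genes. Psmd11 had 118, 122, 123 and 119 CPM in Irgm1-KO and 66.5, 70.2, 65.8 and 66.5 CPM in WT (0.84 ± 0.0591, adjusted p = 3.91e-07). Psmd2 had 361, 379.5, 356 and 373 CPM in Irgm1-KO and 229, 237, 236 and 244 CPM in WT (0.64 ± 0.0589, adjusted p = 3.96e-06). Psmd3 had 101, 105, 87.4 and 101 CPM in Irgm1-KO and 60.1, 54, 58.4 and 59.5 CPM in WT (0.76 ± 0.0715, adjusted p = 4.34e-06). No Irgm1-KO library overlapped the WT libraries for these 3 genes, and the libraries within a group lay close together. Of the 11 non-ATPase genes 7 rose, among them Psmd1 (0.53 ± 0.0631, adjusted p = 3.34e-05).

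Of the ATPases 5 of 6 rose, the exception being Psmc3 (Rpt5; 0.38 ± 0.247, adjusted p = 0.252). Psmc4 had 103, 106, 121 and 108 CPM in Irgm1-KO and 59, 77, 65.3 and 67 CPM in WT (0.71 ± 0.0998, adjusted p = 0.000118). Its groups were apart, as were those of Psmc1 (Rpt2), at 205, 222, 259 and 222 CPM in Irgm1-KO and 106, 152, 125 and 130.5 CPM in WT (0.82 ± 0.122, adjusted p = 0.000182).

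The core particle had few calls. Only Psma1 (α6) of 8 α genes (0.44 ± 0.151, adjusted p = 0.0354) and Psmb2 (β4) of 7 β genes (0.52 ± 0.166, adjusted p = 0.0247) rose. Psmb6 had 235, 242, 553 and 276 CPM in Irgm1-KO and 90.4, 332, 145 and 134 CPM in WT, with the largest log2 fold change of the set and no call (0.90 ± 0.407, adjusted p = 0.102). Here Irgm1-KO library 3 and WT library 2 stood far above the others of their groups. Psmb7 had 189.8, 199.6, 309 and 213 CPM in Irgm1-KO and 100.0, 225, 141 and 134 CPM in WT (0.60 ± 0.245, adjusted p = 0.0693), and Psmb5 had 32.9, 34.4, 70.5 and 37.3 CPM in Irgm1-KO and 19.1, 57.2, 28.2 and 26.3 CPM in WT (0.42 ± 0.364, adjusted p = 0.388). Psma3 had 117, 121, 250.1 and 133 CPM in Irgm1-KO and 81.8, 245, 128 and 116 CPM in WT (0.12 ± 0.343, adjusted p = 0.81), and its sign turned when Irgm1-KO library 3 was left out. The same 2 libraries were highest for these genes.

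Psme4 and Psme3 rose, 2 of the 4 activators. Psme4 had 226, 226, 162 and 191 CPM in Irgm1-KO and 164, 96.2, 137 and 141 CPM in WT (0.58 ± 0.168, adjusted p = 0.0157), and Psme3 had 81.5, 86.2, 74.8 and 80.3 CPM in Irgm1-KO and 73.3, 64.3, 68.3 and 67.6 CPM in WT (0.24 ± 0.0667, adjusted p = 0.0127). For both genes the libraries highest for Psmb6 (Irgm1-KO 3 and WT 2) were the lowest of their groups, and for Psme4 Irgm1-KO library 3 lay below the highest WT library. Psme1 had 560.5, 599, 866 and 624 CPM in Irgm1-KO and 369.6, 654, 500.0 and 487 CPM in WT (0.40 ± 0.188, adjusted p = 0.115), and Psme2 had 431, 462, 794 and 478 CPM in Irgm1-KO and 238, 541, 337 and 326 CPM in WT (0.59 ± 0.268, adjusted p = 0.103). Neither was called, and WT library 2 lay inside the Irgm1-KO range for both. The same held for Psmd14, at 116, 125, 197 and 126 CPM in Irgm1-KO and 63.9, 153, 102 and 97.2 CPM in WT (0.44 ± 0.249, adjusted p = 0.188). It held for Psmd4 too, at 129, 138, 221 and 147 CPM in Irgm1-KO and 77.7, 157, 103 and 100.2 CPM in WT (0.54 ± 0.229, adjusted p = 0.0811).

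Fits that take up the spread within groups made more calls. With log2 Xist as a covariate 38 members rose, against 30.3% of all genes, and with the within-group axis as a covariate 38 rose, against 33.3% of all genes. The 16 members called without a covariate were among them in both fits. Xist is transcribed in female cells, but in experiment 1 it was measured in every library, at 50.8 to 231 CPM. In each group the library lowest in Xist was the highest on the axis, so these covariates are not independent. Whether the Xist covariate follows the sex of the donors was not tested. The axis was computed from the same libraries, so its p-values are too small. Without WT library 2 alone 27 members rose, against 20.5% of all genes. Without the 3 libraries farthest out on the axis, which were WT 1, WT 2 and Irgm1-KO 3, 21 rose, against 23% of all genes.

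**Figure D2:**
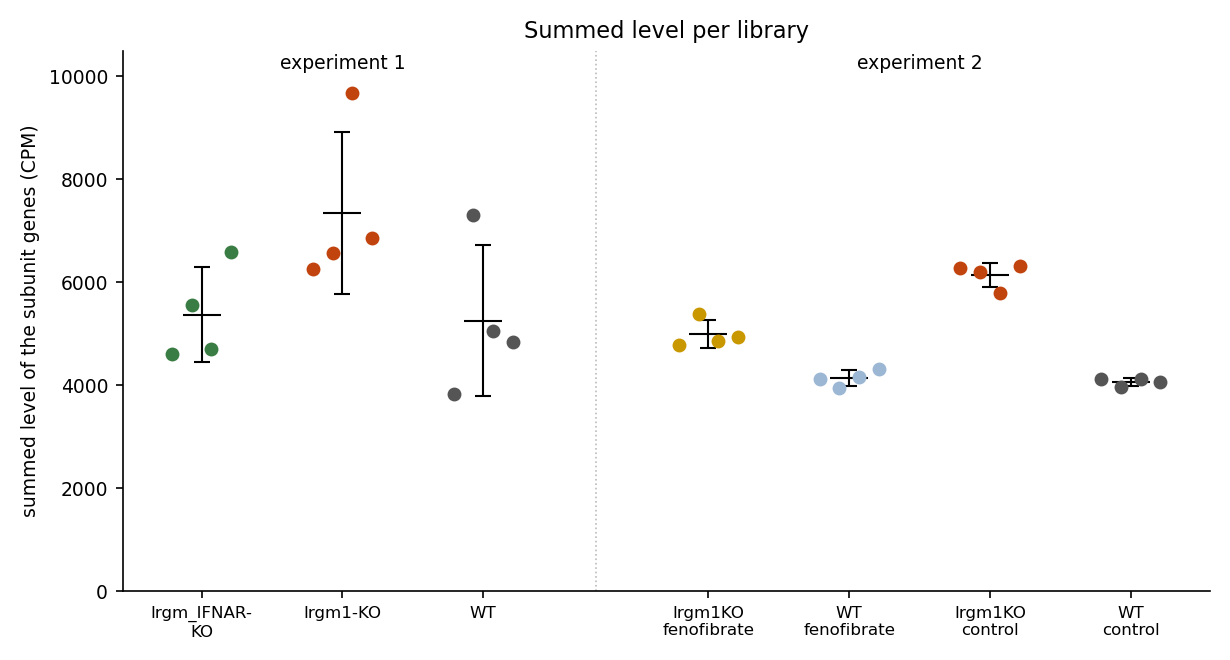
Summed level of the members (CPM, vertical axis) in each library of the 7 groups; points are libraries in replicate order, and black marks are means with SD (n = 4). Irgm1-KO libraries lie at 6271 to 9684 CPM with WT at 3829 to 7304, and Irgm1KO_control libraries at 5802 to 6312 CPM with WT_control at 3961 to 4130.

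**Figure D3:**
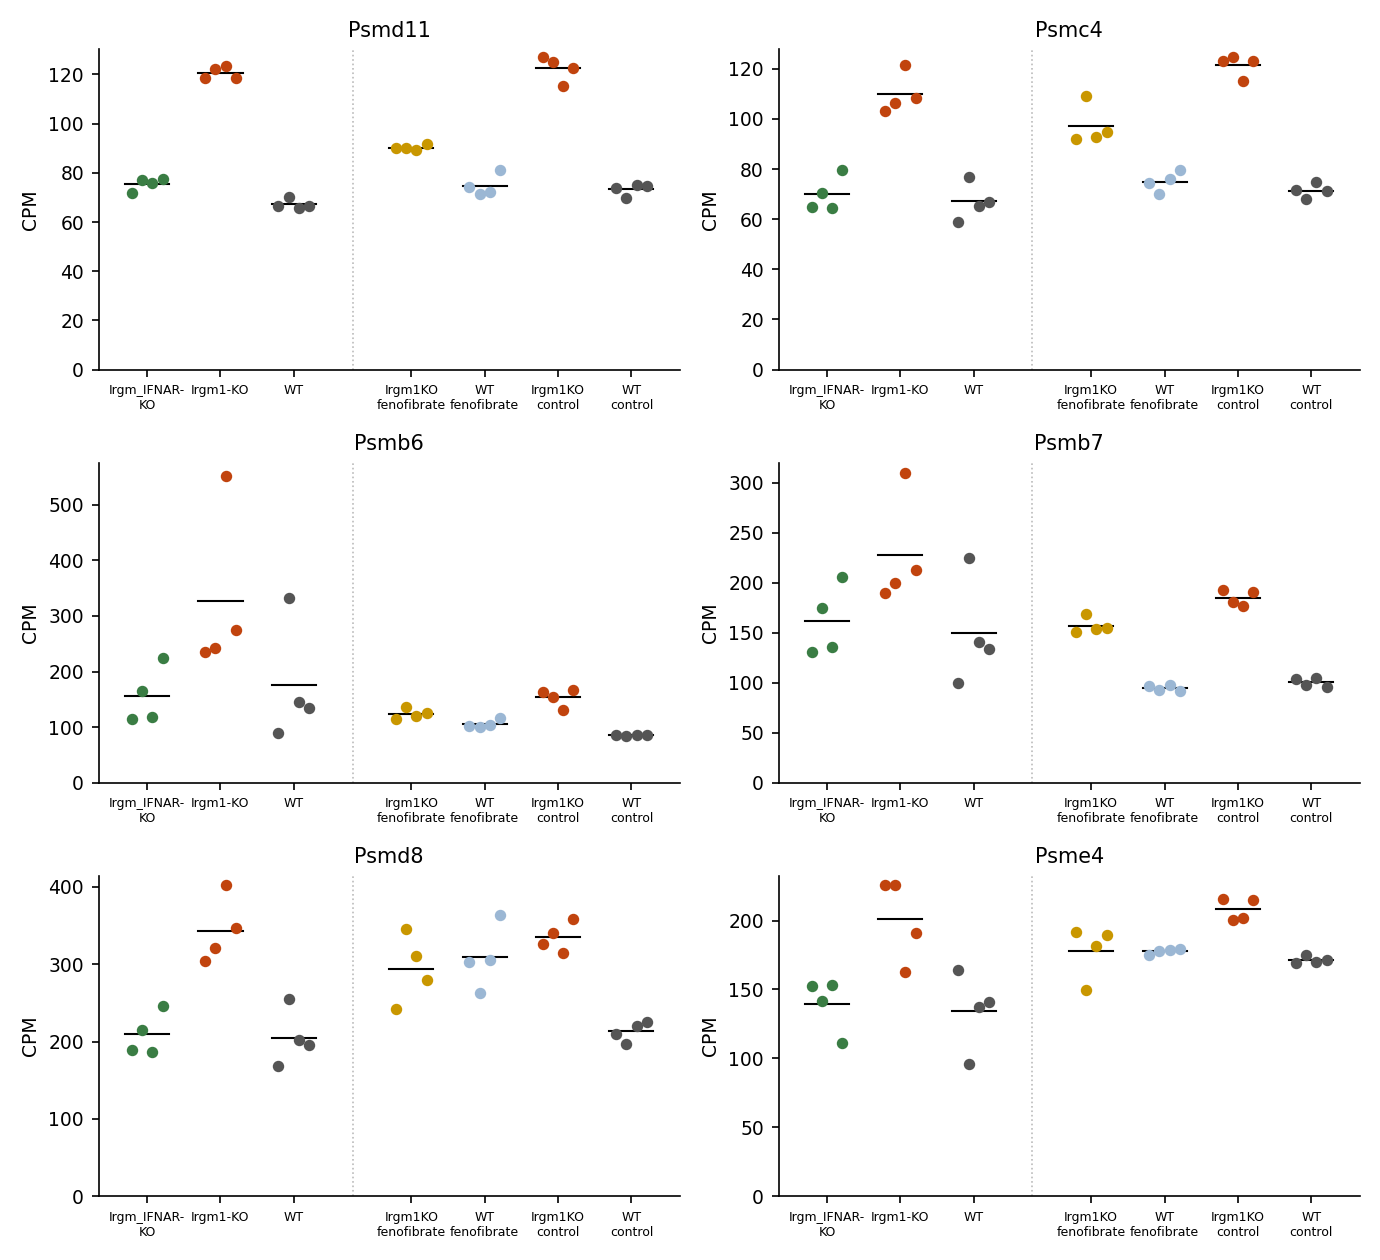
CPM (vertical axis, linear from 0) of 6 members in every library of the 7 groups; points are libraries in replicate order and lines are group means. Psmd11 separates Irgm1-KO (118 to 123 CPM) from WT (65.8 to 70.2 CPM), while Psmb6 has 1 high library in Irgm1-KO and 1 in WT.

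The experiments share no library, so the fold changes of knockout against wild type can be set side by side. All 39 members were above 0 in both, as were 39% of the 13676 genes tested in both. The 16 members that rose in experiment 1 also rose in experiment 2, which is 41% of the members, while 15.7% of all genes rose in both. Across members the fold changes had Pearson r 0.57 and Spearman rho 0.59, against 0.83 and 0.76 across all genes, given as a description because genes of a library share its depth and make-up. Psme4 had the larger log2 fold change in experiment 1, 0.58, against 0.28 in experiment 2, and Psma3 the smaller, 0.12 against 0.54. Whether the effect differs between experiments was not tested.

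**Figure D4:**
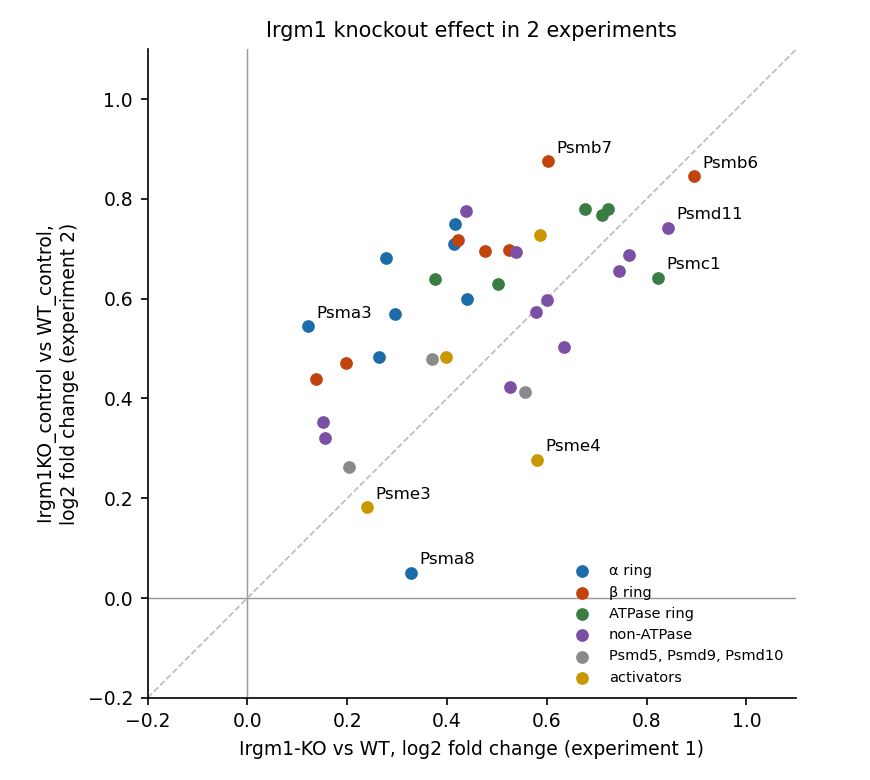
Log2 fold change of each member in Irgm1KO_control vs WT_control (vertical axis) against that in Irgm1-KO vs WT (horizontal axis), coloured by role; the dashed line marks equal values. All 39 points lie above 0 on both axes, with Psmb6, Psmd11 and Psmb7 towards the upper right.

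Comparing Irgm_IFNAR-KO with Irgm1-KO cells asked how far the knockout profile depends on type I interferon signalling. Members were lower in the cells without the receptor: 0 rose and 16 fell, against 21.5% of all genes that rose and 21.3% that fell, and none of the 39 log2 fold changes was above 0, with a median of -0.44 (all-gene median 0.022). The comparison shares its Irgm1-KO libraries with Irgm1-KO against WT, so the directions of the pair are not independent. The proliferation markers summed to 108 to 167 CPM in Irgm_IFNAR-KO and 66 to 88.5 CPM in Irgm1-KO. The summed level was 4616, 5569, 4702 and 6597 CPM in Irgm_IFNAR-KO, against 6271, 6574, 9684 and 6871 CPM in Irgm1-KO, with library 4 of Irgm_IFNAR-KO above 2 Irgm1-KO libraries.

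Of the 6 ATPases 5 fell, and of the 11 non-ATPases 7. Psmd11 had 71.7, 77, 75.8 and 77.7 CPM in Irgm_IFNAR-KO and 118, 122, 123 and 119 CPM in Irgm1-KO (-0.68 ± 0.0589, adjusted p = 1.84e-06). Psmd2 had 234, 235, 230.1 and 247 CPM in Irgm_IFNAR-KO and 361, 379.5, 356 and 373 CPM in Irgm1-KO (-0.64 ± 0.0589, adjusted p = 3.1e-06). Psmd3 had 61.4, 62.1, 62.9 and 64 CPM in Irgm_IFNAR-KO and 101, 105, 87.4 and 101 CPM in Irgm1-KO (-0.65 ± 0.0714, adjusted p = 1.27e-05). The libraries did not overlap for these 3 genes. Psmc4 had 64.8, 70.3, 64.6 and 79.8 CPM in Irgm_IFNAR-KO and 103, 106, 121 and 108 CPM in Irgm1-KO (-0.65 ± 0.0997, adjusted p = 0.000213), also apart.

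In the core particle Psma1 (-0.46 ± 0.151, adjusted p = 0.028) and Psmb2 (-0.63 ± 0.166, adjusted p = 0.00911) fell. Psmb6 had 114, 166, 118 and 224 CPM in Irgm_IFNAR-KO and 235, 242, 553 and 276 CPM in Irgm1-KO, with the largest log2 fold change of the set and no call (-1.07 ± 0.409, adjusted p = 0.0528), although the libraries did not overlap. Psmb5 and Psmb7 had log2 fold changes of -0.40 and -0.50 (adjusted p = 0.404 and 0.126). Psma3 had 112, 164, 124 and 198 CPM in Irgm_IFNAR-KO and 117, 121, 250.1 and 133 CPM in Irgm1-KO (log2 fold change -0.056, adjusted p = 0.913).

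Among the activators Psme4 had 153, 142, 153 and 111 CPM in Irgm_IFNAR-KO (-0.53 ± 0.168, adjusted p = 0.0236) and fell, as did Psme1, at 413, 470.5, 403 and 584 CPM (-0.50 ± 0.189, adjusted p = 0.0491). The Irgm1-KO values stand above, and the groups were apart for Psme4 but overlapped for Psme1. Psme2 had 283, 359, 286 and 464 CPM in Irgm_IFNAR-KO (-0.64 ± 0.268, adjusted p = 0.0754) and was not called, nor was Psme3, at 72.8, 71.9, 74 and 73.8 CPM (-0.14 ± 0.0666, adjusted p = 0.107). With log2 Xist as a covariate 31 members fell, against 30.5% of all genes, and with the within-group axis 35 fell, against 33%.

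Between Irgm_IFNAR-KO and WT cells few members were called. By the same test 1 member rose and 0 fell, against 3.94% of all genes that rose and 8.22% that fell, with a median log2 fold change of 0.058 (all-gene median 0.0078). The gene was Psmd1, at 126, 136, 130.2 and 134 CPM in Irgm_IFNAR-KO and 105, 118, 113 and 116 CPM in WT (0.22 ± 0.063, adjusted p = 0.0381), with all Irgm_IFNAR-KO libraries above WT. The call was lost with only the groups compared, without the 3 libraries farthest out, with a replicate block, and on leaving out any single library other than WT 2 and Irgm1-KO 3. With log2 Xist as a covariate 25 members rose (14.9% of all genes), and with the within-group axis 16 rose and 2 fell (21.2% and 19.1% of all genes). The count therefore depends on how the spread between libraries is modelled.

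Fenofibrate was compared with control in each genotype. Control and treated libraries of a genotype were taken as paired by number, as described further below. The edgeR effects and p-values printed for the drug and for the interaction come from fits without a term for this pairing. How the counts of members moved with such a term, the replicate block, is given further below. In Irgm1KO cells the members were lower with the drug: 0 rose and 32 of 39 fell, against 23.5% of all genes that rose and 22.2% that fell, with a median log2 fold change of -0.30 (all-gene median 0.013). The summed level was 4995 ± 272 CPM in Irgm1KO_fenofibrate and 6146 ± 234 CPM in Irgm1KO_control (SD, n = 4 each), and the highest treated library, at 5392 CPM, lay below the lowest control library, at 5802 CPM. The proliferation markers summed to 610 to 883 CPM in Irgm1KO_fenofibrate and 238 to 283 CPM in Irgm1KO_control, and the part of this difference in the result was not tested.

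Of the 8 α genes 7 fell. Psma6 had 119.9, 129.8, 125 and 131 CPM in Irgm1KO_fenofibrate and 178, 179, 169 and 182 CPM in Irgm1KO_control (-0.49 ± 0.044, adjusted p = 2.33e-07), Psma4 had 160.0, 181, 151 and 161 CPM in Irgm1KO_fenofibrate and 220.1, 219, 205 and 210.3 CPM in Irgm1KO_control (-0.39 ± 0.0528, adjusted p = 1.72e-05), and Psma3 had 80.2, 86.9, 80.6 and 81 CPM in Irgm1KO_fenofibrate and 106, 100.3, 92.5 and 99.8 CPM in Irgm1KO_control (-0.28 ± 0.0497, adjusted p = 0.000235). In each, all treated libraries lay below all controls. Of the β genes 6 of 7 fell. Psmb7 had 151, 169, 153 and 154 CPM in Irgm1KO_fenofibrate and 192, 181, 176 and 190.2 CPM in Irgm1KO_control (-0.24 ± 0.0479, adjusted p = 0.000676). Psmb6 had 115, 136, 121 and 126 CPM in Irgm1KO_fenofibrate and 164, 154, 131 and 166 CPM in Irgm1KO_control (-0.31 ± 0.0712, adjusted p = 0.00212), with treated library 2 above control library 3. Psmb5, at 21.9, 30.4, 24.8 and 24.6 CPM in Irgm1KO_fenofibrate and 30.0, 28.9, 25.9 and 27.9 CPM in Irgm1KO_control, was the β gene not called (-0.15 ± 0.105, adjusted p = 0.268).

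All 6 ATPases and 9 of 11 non-ATPases fell. Psmc4 had 92.1, 109, 92.6 and 94.7 CPM in Irgm1KO_fenofibrate and 123, 124, 115 and 123 CPM in Irgm1KO_control (-0.32 ± 0.0567, adjusted p = 0.000193). Psmd11 had 90.0, 90.1, 89.2 and 91.9 CPM in Irgm1KO_fenofibrate and 127, 125, 116 and 123 CPM in Irgm1KO_control (-0.44 ± 0.0467, adjusted p = 1.23e-06). Psmd14 had 89.5, 88, 85.1 and 91.2 CPM in Irgm1KO_fenofibrate and 122, 118, 108 and 117 CPM in Irgm1KO_control (-0.39 ± 0.042, adjusted p = 1.37e-06), and Psmd4 had 93.8, 113, 92.2 and 93.7 CPM in Irgm1KO_fenofibrate and 125, 127, 119.5 and 131 CPM in Irgm1KO_control (-0.36 ± 0.0602, adjusted p = 0.000136). Treated and control libraries did not overlap for these 4 genes. The 2 non-ATPases not called were Psmd2, at 373, 414, 399 and 393 CPM in Irgm1KO_fenofibrate and 419, 427, 407 and 429.6 CPM in Irgm1KO_control (-0.092 ± 0.0509, adjusted p = 0.155), and Psmd8, at 242, 345, 311 and 279.6 CPM in Irgm1KO_fenofibrate and 327, 341, 314 and 359 CPM in Irgm1KO_control (-0.19 ± 0.101, adjusted p = 0.145).

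Of the chaperones only Psmd10 fell, to 24.6, 27.1, 25.2 and 24.2 CPM in Irgm1KO_fenofibrate, against 39, 36.3, 34 and 37.2 CPM in Irgm1KO_control (-0.54 ± 0.0503, adjusted p = 3.57e-07), the largest log2 fold change of the set. Of the 4 activators 3 fell. Psme2 had 296, 374, 308 and 314 CPM in Irgm1KO_fenofibrate (-0.52 ± 0.0665, adjusted p = 8.33e-06), Psme1 had 375, 451, 372 and 388 CPM (-0.36 ± 0.06, adjusted p = 0.000112) and Psme4 had 192, 149, 182 and 189.5 CPM (-0.22 ± 0.0619, adjusted p = 0.007), all below their controls given above. Psme3 had 91, 97.6, 93 and 93.6 CPM in Irgm1KO_fenofibrate and was not called (-0.07 ± 0.0369, adjusted p = 0.137). Irgm1KO_fenofibrate library 2 was the highest for Psme1 and Psme2 and the lowest for Psme4, and it had the largest ribosomal protein share of experiment 2, 2.27%.

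In WT cells the summed level on the TMM scale differed by less than the spread between libraries, at 4142 ± 155 CPM in WT_fenofibrate and 4068 ± 77.6 CPM in WT_control (SD, n = 4 each). As a share of raw counts it was higher with the drug, at 0.43% ± 0.0254 in WT_fenofibrate and 0.391% ± 0.016 in WT_control. Without the gene with the largest count the shares were 0.438%, 0.424%, 0.439% and 0.47% in WT_fenofibrate, against 0.418%, 0.396%, 0.41% and 0.414% in WT_control, and did not overlap, so the result depends on the scaling. By the same test 5 members rose and 3 fell, against 18.1% of all genes that rose and 16.9% that fell, and the median log2 fold change was -0.0096 (all-gene median 0.017). The proliferation markers summed to 448 to 727 CPM in WT_fenofibrate and 470 to 649 CPM in WT_control. Of the 10 macrophage markers 1 rose and 6 fell, and their part in the result was not tested. Psmd8 had 303, 263, 305 and 364 CPM in WT_fenofibrate and 209, 197, 220.0 and 226 CPM in WT_control (0.54 ± 0.102, adjusted p = 0.000727). Psmb6 had 103, 101, 104 and 117 CPM in WT_fenofibrate and 86.6, 83.6, 85.9 and 86.7 CPM in WT_control (0.31 ± 0.0713, adjusted p = 0.00289). Psmc6 had 93.9, 94.1, 101 and 105 CPM in WT_fenofibrate and 80.5, 81.3, 81.2 and 80.2 CPM in WT_control (0.29 ± 0.0469, adjusted p = 0.000218). All treated libraries lay above all controls for these 3 genes. Psmd2 and Psmd5 also rose, with log2 fold changes of 0.18 and 0.19 (adjusted p = 0.00982 and 0.0237).

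The 3 genes that fell did so by little. Psma4 had 113, 111, 117 and 119.9 CPM in WT_fenofibrate and 137, 129.7, 131 and 125 CPM in WT_control (-0.18 ± 0.0529, adjusted p = 0.0138). Psmd10 had 23.5, 23.7, 24.6 and 25.9 CPM in WT_fenofibrate and 27.6, 28.2, 26.6 and 27.6 CPM in WT_control (-0.17 ± 0.0502, adjusted p = 0.0144). Psmd7 had 73, 67.7, 72 and 79.4 CPM in WT_fenofibrate and 80.5, 79.3, 82.7 and 81.6 CPM in WT_control (-0.15 ± 0.0534, adjusted p = 0.0387). The groups were apart for Psma4 and Psmd10, and for Psmd7 WT_fenofibrate library 4 reached the control range. These 3 also fell in Irgm1KO cells. With a replicate block, which pairs the control and treated libraries of 1 number, 6 members fell instead of 3, and of all genes 21% fell instead of 16.9%, so the members' share stayed below that of all genes. The catalytic subunits Psmb7 and Psmb5 had 96.8, 92.5, 97.2 and 92.1 CPM and 17.5, 17.9, 16.8 and 23.9 CPM in WT_fenofibrate and were not called.

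The interaction term tests whether the drug effect differs between genotypes. It was below 0 for all 39 members, that is, the log2 effect of the drug was more negative in Irgm1KO than in WT cells, and 28 passed the test while 0 passed above 0. Of all genes 14.7% were called below 0 and 14.9% above, and the member median was -0.29 (all-gene median -0.0032). By class 7 of 8 α, 3 of 7 β, 6 of 6 ATPase, 9 of 11 non-ATPase, 1 of 3 chaperone and 2 of 4 activator genes were called. Psmd8 had the largest term (-0.72 ± 0.144, adjusted p = 0.00132), followed by Psmb6 (-0.62 ± 0.101, adjusted p = 0.000275), Psmc6 (-0.51 ± 0.0662, adjusted p = 3.51e-05), Psmd11 (-0.47 ± 0.066, adjusted p = 7.74e-05) and Psma6 (-0.46 ± 0.0621, adjusted p = 5.51e-05). Psmb7 (log2 -0.15, adjusted p = 0.118), Psmb5 (-0.30, adjusted p = 0.15) and Psme1 (-0.21, adjusted p = 0.0758) were not.

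**Figure D5:**
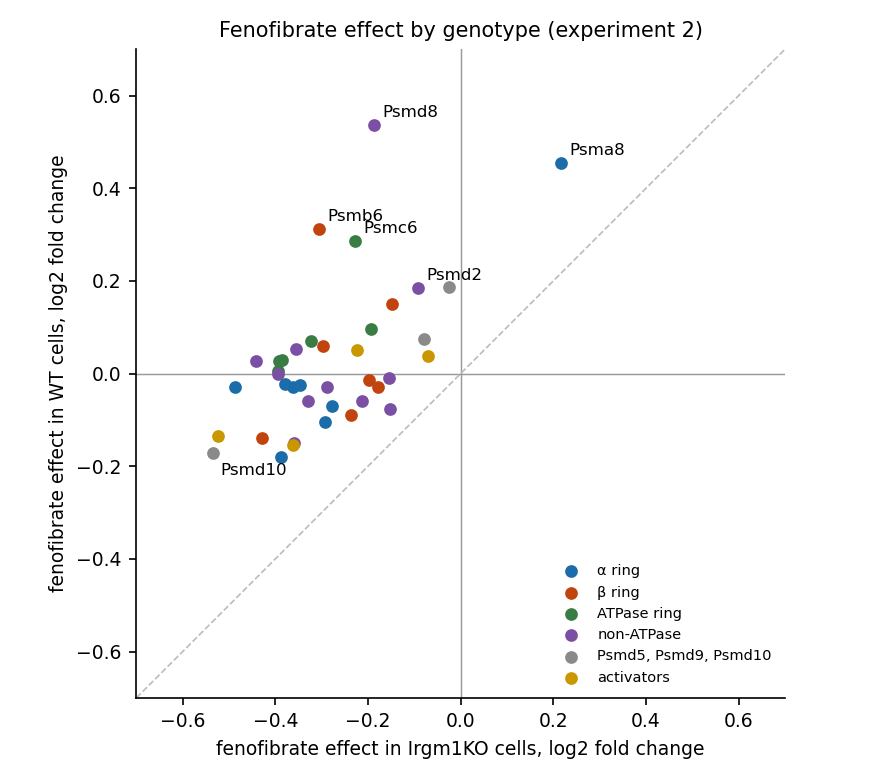
Log2 fold change with fenofibrate in WT cells (vertical axis) against that in Irgm1KO cells (horizontal axis) for the 39 tested members, coloured by role; the dashed line marks equal effects. Every point lies above the line, and Psmd8, Psmb6, Psmc6 and Psmd2 are above 0 in WT and below 0 in Irgm1KO cells.

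Under fenofibrate a part of the genotype difference was still measured. In Irgm1KO_fenofibrate against WT_fenofibrate 32 members rose and 0 fell, against 18.1% of all genes that rose and 15.2% that fell, with a median log2 fold change of 0.29 (all-gene median 0.0073). The lowest Irgm1KO_fenofibrate library had a summed level of 4785 CPM and the highest WT_fenofibrate library 4323 CPM. Psmb7 (0.73 ± 0.0482, adjusted p = 6.28e-08), Psma4 (0.50 ± 0.053, adjusted p = 6.45e-06) and Psmd14 (0.38 ± 0.0421, adjusted p = 9.81e-06) had the smallest p-values. The members not called were Psma8, Psmc6, Psmd8, Psmd9, Psmd10, Psme3 and Psme4, whose log2 fold changes were -0.19, 0.11, -0.069, 0.11, 0.048, 0.074 and 0.0025.

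The immunoproteasome genes and the constitutive catalytic subunits both rose in knockout cells in experiment 2. In Irgm1KO_control against WT_control, Psmb8 (β5i), Psmb9 (β1i) and Psmb10 (β2i) rose by log2 fold changes of 0.64, 0.76 and 0.64. In Irgm1-KO against WT only Psmb10 of these 3 was called (0.57 ± 0.136, adjusted p = 0.00542), and Psmb8 (0.30 ± 0.215, adjusted p = 0.295) and Psmb9 (0.39 ± 0.227, adjusted p = 0.193) were not, nor were Psmb5, Psmb6 and Psmb7. The ratio of each to its constitutive counterpart was compared in 7 comparisons by an exact two-sided permutation test, 21 tests in all, for which 4 against 4 libraries can give no p under 0.0286. Ratios are of CPM, not corrected for transcript length, and are set side by side only between groups. No adjusted p was under 0.0751. Psmb8 stood at 23 to 26.3 times Psmb5 in Irgm1KO_control and 23.4 to 28.5 times in WT_control (log2 difference -0.073, exact permutation p = 0.4, adjusted 0.56). Psmb10 stood at 1.89 to 2.08 times Psmb7 in Irgm1KO_control and 2.26 to 2.41 times in WT_control, without overlap (log2 difference -0.24, exact permutation p = 0.0286, adjusted 0.0751). Psmb9 stood at 1.36 to 1.71 times Psmb6 in Irgm_IFNAR-KO and 0.811 to 1.15 times in Irgm1-KO, without overlap (log2 difference 0.56, exact permutation p = 0.0286, adjusted 0.0751). With fenofibrate all 3 ratios were lower in Irgm1KO cells, by log2 differences of -0.22, -0.22 and -0.31 for Psmb8, Psmb9 and Psmb10, with no overlap (each exact permutation p = 0.0286, adjusted 0.0751). In WT cells the differences with the drug were -0.22 for Psmb8, with overlap (exact permutation p = 0.171, adjusted 0.299), and -0.36 for Psmb9 and -0.14 for Psmb10, without overlap (each exact permutation p = 0.0286, adjusted 0.0751). Psmb10 stood at 1.5 to 1.73 times Psmb7 in Irgm1KO_fenofibrate and 1.94 to 2.23 times in WT_fenofibrate, without overlap (log2 difference -0.41, exact permutation p = 0.0286, adjusted 0.0751). The permutation test took the libraries as unpaired, so its p-values for the drug comparisons leave out the pairing of control and treated libraries by number. Whether the drug effect on a ratio differs between genotypes was not tested. Misses of the threshold here do not show that ratios were equal.

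Other genes of the pathway were read from lists given by name. Of 4 further particle components, Adrm1 (Rpn13, a ubiquitin receptor), Psmf1 (the inhibitor PI31), Uchl5 (a deubiquitinase) and Sem1, all 4 rose and 0 fell in Irgm1KO_control against WT_control (27.3% and 26.1% of all genes). In Irgm1-KO against WT 3 of them rose, without Sem1 (19.8% of all genes). Adrm1 had 44.5, 44.4, 39.1 and 45.8 CPM in Irgm1KO_control and 23, 23, 23.6 and 24.2 CPM in WT_control (0.89 ± 0.0732, adjusted p = 4.95e-08), with no overlap, and 0.90 on the log2 scale in experiment 1 (adjusted p = 9.13e-07). Among 5 core assembly chaperones 4 rose in Irgm1KO_control (27.3% of all genes). Pomp, the maturation factor of the core, was at 179, 184, 186 and 179.5 CPM in Irgm1KO_control and 185, 184, 186 and 168 CPM in WT_control and was not called (0.012 ± 0.057, adjusted p = 0.88). None of the 5 was called in Irgm1-KO against WT, where 19.8% of all genes rose and 20.7% fell. With fenofibrate in Irgm1KO cells 3 of the 4 further particle components fell, among them Adrm1 (-0.52 ± 0.0728, adjusted p = 2.22e-05), and 1 of the 5 assembly chaperones rose. Of all genes 22.2% fell and 23.5% rose, so the chaperone count is near the share of all genes.

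Nfe2l1 was higher in knockout cells in both experiments. It rose to 374, 364, 339.5 and 373 CPM in Irgm1KO_control, against 244, 224, 241 and 248 CPM in WT_control (0.60 ± 0.0693, adjusted p = 2.08e-06), and to 349, 362, 241 and 334 CPM in Irgm1-KO, against 189, 114, 149.9 and 164 CPM in WT (1.06 ± 0.165, adjusted p = 0.000271). Library 3 of Irgm1-KO and library 2 of WT were the lowest of their groups, as for Psme4, and no libraries overlapped in either experiment. It fell in Irgm_IFNAR-KO against Irgm1-KO (-0.88 ± 0.164, adjusted p = 0.00092) and with fenofibrate in Irgm1KO cells (-0.31 ± 0.0691, adjusted p = 0.00169), but rose with fenofibrate in WT cells (0.47 ± 0.0692, adjusted p = 9.16e-05). Its interaction term was -0.77 (adjusted p = 3.14e-05). Ddi2, the protease that activates the Nfe2l1 protein, moved the other way. It fell in Irgm1KO_control (-0.78 ± 0.0792, adjusted p = 4.84e-07) and in Irgm1-KO (-0.69 ± 0.182, adjusted p = 0.0098), with 108, 108, 126 and 103 CPM in Irgm1KO_control and 190.5, 207, 185 and 184 CPM in WT_control. These are transcript levels, and the processed protein was not measured. Of the 7 genes of the transcriptional control list, Nfe2l1 and Mafk rose and Ddi2 and Nfe2l2 fell in Irgm1KO_control against WT_control, while Maff, Mafg and Ngly1 were not called, which is near the share of all genes (27.3% rose, 26.1% fell). In Irgm1-KO against WT 4 rose (Nfe2l1, Maff, Mafg and Mafk) and 1 fell (Ddi2), against 19.8% and 20.7% of all genes.

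Of 11 factors that bind the proteasome, 8 rose and 1 fell in Irgm1KO_control against WT_control (27.3% and 26.1% of all genes), and 7 rose and 0 fell in Irgm1-KO against WT (19.8% and 20.7%). The gene that fell was Ubqln2 (-0.31 ± 0.0533, adjusted p = 0.000127), a ubiquilin shuttle factor. With fenofibrate in Irgm1KO cells 1 rose and 5 fell (23.5% and 22.2% of all genes), and in WT cells 7 rose and 1 fell (18.1% and 16.9%). The shuttle factor Rad23b, which carries ubiquitinated proteins to the proteasome, rose in Irgm1KO_control (0.66 ± 0.0598, adjusted p = 1.4e-07) and fell with fenofibrate in Irgm1KO cells (-0.29 ± 0.0596, adjusted p = 0.000874). Zfand2a, an arsenite-induced proteasome-binding protein, rose in Irgm1KO_control (0.66 ± 0.0628, adjusted p = 2.67e-07) and fell in Irgm_IFNAR-KO against Irgm1-KO (-1.24 ± 0.0984, adjusted p = 8.98e-07).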

How the data were processed

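RNA from cultured bone marrow macrophages was made into mRNA-enriched libraries (Kapa mRNA HyperPrep) and sequenced for 100 cycles in experiment 1 and 50 in experiment 2, per the labels. The deposited values are raw counts per Ensembl gene, in 1 table for each experiment. The submitters' processing notes name STAR, fastp, DESeq2 and the build GRCm39. The tools' versions and roles, the counter, the annotation and whether strand was used are not stated in these sources. Symbols were found for 99.6% of the IDs of experiment 1 and 91.2% of experiment 2. Members are the genes chosen by symbol as the report states. Members, gene lists and tests were chosen with earlier results of these data known.

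From the counts, each experiment was fitted alone with edgeR 4.0.16 in R 4.3.3 (filterByExpr with a minimum count of 10 and total of 15, TMM scaling, robust quasi-likelihood F test, all groups of the experiment in 1 fit), with Benjamini-Hochberg adjustment over all genes tested and calls at 0.05. CPM are counts per 1e6 of the TMM-scaled library, and the standard error is the log2 fold change over the root of F. The biological coefficient of variation was 0.172 in experiment 1 and 0.12 in experiment 2. Depth per library is given in the report, and intervals from it would cover counting error only. Values per library are printed for the activators, the catalytic subunits, Psmd14, Psmd4, Psmd11, Psma3, Psmc4 and the members with the 3 smallest p-values in each direction of a comparison, and for some other members and listed genes chosen with their values known. Some listed genes are not reported here. Ratios used an exact permutation test that took the libraries as unpaired (scipy 1.17.1).

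No result of a test of the fit on simulated data is given here. Alternatives in both experiments were DESeq2 1.42.0, its size factors, no filter, only the groups compared, leaving out each library and a replicate block. In experiment 1 alone log2 Xist was a covariate, as were, chosen after seeing the data, the within-group axis as a covariate and leaving out 3 libraries. No fit of experiment 2 had Xist or donor sex as a covariate. In experiment 2 same-numbered control and fenofibrate libraries of a genotype deviated together (r 0.38 to 0.49 in WT and 0.26 to 0.37 in Irgm1KO, other pairs at most 0.14 and 0.012), so their numbers pair them. In experiment 1 same-numbered libraries had r from -0.48 to 0.52 and were not taken as paired.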

Additional observations from a re-analysis of the deposited data

Results flagged for a closer look

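In groups of 4 libraries, a library far from the other 3 by Dixon's criterion at the 95% level was found in 20 of 175 group and measure pairs. For independent pairs chance gives about 1 in 20. These pairs read the same libraries and genes that move together, so the count cannot show an excess over chance. Of these 10 were in Irgm1-KO replicate 3. It was the highest of its group for Psma3 at 250 CPM, Psma4 at 320, Psma6 at 389, Psmb5 at 70.5, Psmb6 at 553, Psmc6 at 144, Psmd10 at 76.0, Psmd14 at 197 and Psme2 at 794 CPM, and the lowest for the ratio of Psmb8 to Psmb5, at 16.1.

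The others were spread over experiment 2 and WT. WT replicate 2 was highest for Psmd11, at 70.2 CPM. Irgm1KO_fenofibrate replicate 2 was highest for Psmd4 at 113 CPM, Psma3 at 86.9 and Psmc4 at 109 CPM. WT_fenofibrate replicate 4 was highest for Psmb5 at 23.9 CPM and Psma3 at 70.8 CPM, and WT_fenofibrate replicate 2 was lowest for Psmd4 at 75.1 CPM. Irgm1KO_control replicate 3 was lowest for Psmc4 at 115 CPM and Psmd7 at 113 CPM. WT_control replicate 1 was highest for Psmd1 at 140 CPM.

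The fenofibrate effect differed between genotypes, by the interaction term, for 28 members. Among those with values per library the log2 terms were -0.206 for Psma3, -0.206 for Psma4, -0.458 for Psma6, -0.617 for Psmb6, -0.419 for Psmc1, -0.394 for Psmc4, -0.515 for Psmc6, -0.276 for Psmd2, -0.271 for Psmd3, -0.41 for Psmd4, -0.211 for Psmd7, -0.724 for Psmd8, -0.365 for Psmd10, -0.469 for Psmd11, -0.393 for Psmd14, -0.389 for Psme2 and -0.275 for Psme4.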

How the results depend on the processing

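The direction of the member medians held under every alternative run except in 2 comparisons with medians near 0, Irgm_IFNAR-KO against WT (-0.0815 to 0.224) and WT_fenofibrate against WT_control (-0.0288 to 0.00824). In Irgm1-KO against WT 38 members rose with Xist and 38 with the within-group axis as covariate, instead of 16, and 14 to 27 on leaving out 1 library (27 without WT replicate 2). Of all genes 30.3% and 33.3% rose with these covariates, instead of 19.8%, and 16.8% to 20.8% on leaving out 1 library. In Irgm_IFNAR-KO against Irgm1-KO 31 and 35 members fell with these covariates, instead of 16, and 13 to 20 on leaving out 1 library. Of all genes 30.5% and 33% fell with these covariates, instead of 21.3%, and 18.6% to 23.3% on leaving out 1 library. In Irgm_IFNAR-KO against WT the 1 member that rose became 2 with DESeq2's Wald test, 25 with Xist, 16 with the axis (2 fell), and 0 with only the groups compared, with the replicate block or without the 3 libraries farthest out, and ran from 0 to 1 on leaving out 1 library. Of all genes 3.94% rose in the main fit, 5.96% with the Wald test, 14.9% with Xist and 21.2% with the axis. Psma3 ran from -0.206 to 0.515 in Irgm1-KO against WT and from -0.22 to 0.272 in Irgm_IFNAR-KO against Irgm1-KO on leaving out 1 library (log2), and was at 0.237 in the second without the 3 libraries. The cause of these changes was not tested.

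In experiment 2 the count that fell in WT_fenofibrate against WT_control, 3, became 6 with DESeq2 size factors, 6 with its Wald test, 6 with the replicate block, 7 with only the groups compared and 1 without the filter, and ran from 2 to 7 on leaving out 1 library (7 without Irgm1KO_fenofibrate replicate 2, which changes the shared spread and scaling). Of all genes 16.9% fell in the main fit. In these settings, in the same order, 17.6%, 18.6%, 21%, 19.5% and 7.48% fell, and 19.9% without Irgm1KO_fenofibrate replicate 2. The members' share stayed below that of all genes in each of these. The interaction called 22 to 36 members below 0 on leaving out 1 library and 32 with the replicate block. Of all genes it called 12.1% to 18% below 0 on leaving out 1 library and 19.1% with the block. The block moved no other count of members by over 1.5 times. Some ratio differences changed sign on leaving out 1 library: log2 Psmb8 over Psmb5 in Irgm_IFNAR-KO against Irgm1-KO (-0.0708 to 0.108), Psmb9 over Psmb6 in Irgm_IFNAR-KO against WT (-0.203 to 0.113) and in Irgm1KO_fenofibrate against WT_fenofibrate (-0.0142 to 0.0927), and Psmb10 over Psmb7 in Irgm1-KO against WT (-0.192 to 0.0374). The summed share in WT_control was 0.41% without the gene with the largest count, against 0.391%.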

Other observations

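Psma8, the testis form of the α ring subunit α4 and the lowest of the tested members, stood out in experiment 2 by its spread within groups, 0.817 as the SD of log2 CPM against a median of 0.0624 over members. Its level went with the replicate number across treatments. In Irgm1KO cells libraries 1 to 4 had 0.474, 2.42, 2.78 and 0.92 CPM with fenofibrate and 0.55, 2.56, 1.93 and 0.671 CPM as controls, and in WT cells 2.59, 1.41, 2.28 and 1.31 CPM with fenofibrate and 2.0, 1.05, 1.49 and 0.995 CPM as controls. Same-numbered libraries of a genotype also deviated together over all genes, which is why their numbers were taken to pair them.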
